A study of Mus musculus with 6 samples.

Results

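The motile cilia genes described here are 73 of the 37475 genes in a deposited RNA-seq table of injured mouse spinal cord. They were chosen by name and level. The symbol had to begin with Dnah (axonemal dynein heavy chains), Cfap (cilia and flagella associated proteins), Tekt (tektins) or Rsph (radial spoke heads) followed by a digit, or to be Foxj1, Ccdc39 or Ccdc40, and the mean estimated count over the 6 libraries had to be 10 or more. The list holds 44 Cfap, 15 Dnah, 4 Tekt and 6 Rsph genes, the antisense transcript Dnah2os, which the name pattern also took, and the 3 genes given by symbol. A further 6 genes matched by name and fell below the mean count. The choice used no difference between treatments.

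Motile cilia beat through an axoneme, a cylinder of microtubule doublets around a central pair of microtubules. Dynein arms on the doublets produce the sliding force, radial spokes and the central apparatus coordinate it, and inner proteins, tektins among them, line the inside of the doublets. In the spinal cord such cilia are borne by the ependymal cells that line the central canal and move cerebrospinal fluid. The forkhead factor FOXJ1 and the RFX factors switch on the genes of the axoneme.

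All animals were wild-type mice with a contusion of the spinal cord at level T10, made with an impactor, and all tissue was taken on day 3 after the injury. In the syringin group (SCI+Syr, 3 libraries) the mice had been injected intraperitoneally each day with syringin, a phenylpropanoid glycoside found in plants, at 50 mg/kg. In the PBS group (SCI, 3 libraries) they had been injected with phosphate-buffered saline. The labels name no sex, age or distance of the tissue from the lesion, and the values below compare treatments after injury only.

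Library totals were 65.6 to 78.8 (in units of 1e+06 estimated counts). Counts of 4, 8, 12 and 16 were over-represented, 1.18 to 1.5 times as frequent as their neighbours, so a count may stand for less than a whole fragment. Transcripts of sensory ganglion neurons stood high in syringin libraries 1 and 3 and PBS library 1, with summed levels of 299 and 138 against 28.6 in the remaining syringin library, and of 364 in PBS library 1 against 56.8 and 60 in the other PBS libraries, in counts per 1e+06 after TMM scaling (CPM).

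The tissue was checked against markers of ependymal cells outside the axoneme, of which 18 of the 20 listed were measured well enough to test. The markers most restricted to ciliated cells were low: Ccdc153 averaged 0.333 FPKM, Tmem212 0.36 FPKM and Mia 1.18 FPKM over the 6 libraries, and Sntn was detected in PBS library 2 only. The strongest listed ones, Vim at 534 FPKM and Cd24a at 54.2 FPKM, are also expressed by other cells of an injured cord. Among the cilia genes Foxj1 had 9.81 FPKM, while the median over the 73 was 0.393 FPKM, against 2.76 FPKM over all genes tested. Markers of other tissues with axonemes were low: Ttr of the choroid plexus averaged 0.103 FPKM and Scgb1a1 of airway epithelium 0.0933 FPKM. Of 6 sperm genes in the table, Prm2 and Akap4 had no count in any library and 1 was high enough to test. The 6 summed to 0.838, 0.658 and 0.941 CPM in the syringin libraries and 1.96, 0.743 and 0.469 CPM in the PBS libraries. A large share of the summed level of the list came from 6 Cfap genes that many cell types express (Cfap20, Cfap36, Cfap97, Cfap298, Cfap410 and Cfap418). Their sum was 252, 195 and 221 CPM in the syringin libraries, of 494, 429 and 541 CPM for the whole list, against 246, 224 and 212 CPM of 501, 515 and 516 CPM in the PBS libraries.

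RFX factors bind the X-box, a pair of inverted short repeats. RefSeq promoter windows, from 250 bases before to 50 bases after the start of a gene on build GRCm38.p6, were given for 50 of the 73 genes, and 7 of these (14%) held the letters GTNNCCNNGGNNAC, which read the same on both strands, against 2.2% of 27025 genes with a window. They are shown because this was the motif of the 3 searched with the largest ratio between the list and all genes. The matched letters are in capitals, each sequence runs 5′ to 3′ on the strand of the gene, and N in the motif stands for any base.
Cfap126: tgttcaagGTATCCATGGCTACttctcagt
Cfap77: ggcgtcttGTCACCAAGGAGACgggacgtt
Cfap206: cgcgttccGTTTCCACGGTTACgcgactgc
Cfap20dc: gcccctcaGTTGCCTGGGCAACggctcagc
Cfap298: gggttttgGTTGCCCGGGCAACagctactt
Tekt4: ccccacctGTGTCCTGGGAAACaaactcat
Rsph9: ggctcaggGTCTCCATGGAGACagcttcta

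The first of them lies at chr1:171122955-171122984 on the plus strand, where the matched letters begin 82 bases before the start of Cfap126, and the last at chr17:46144185-46144214 on the minus strand, where they begin 6 bases before the start of Rsph9. The Cfap206 match, at chr4:34730208-34730237 on the minus strand, begins 23 bases before its start. The others lie at chr2:29055281-29055310 (Cfap77, minus strand), chr14:8666371-8666400 (Cfap20dc, minus strand), chr16:90935016-90935045 (Cfap298, minus strand) and chr17:25471422-25471451 (Tekt4, plus strand). The shorter letters GTTGCC, on either strand, which can lie within the longer motif as they do for Cfap20dc and Cfap298, were found in 20 of the 50 genes (40.0%), against 14.1% of all genes. The forkhead letters TGTTTAC, on either strand, were found in 3 genes (6.0%), against 4.1% of all genes. By role, GTTGCC was found for 0 of 2 ruler, 0 of 5 outer arm, 4 of 9 inner arm and 2 of 4 tether genes. It was found for 2 of 6 radial spoke, 2 of 6 central apparatus, 1 of 5 inner protein and 3 of 4 tektin genes, and for 4 of 5 other and 2 of 4 broadly expressed Cfap genes. The inner arm genes with GTTGCC were Dnah10 and the close copies Dnah7a, Dnah7b and Dnah7c. A match in letters is not a measured binding site.

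In the comparison of syringin with PBS, the cilia genes had fold changes centred near 0, and 1 passed the test. All 73 were tested. Tekt5, a tektin, was lower in the syringin libraries, no gene of the list was higher, and 72 did not pass the test. Over all 22114 genes tested, 5.01% passed the same threshold (edgeR quasi-likelihood test, Benjamini-Hochberg adjusted p under 0.05), 359 of them higher (1.62%) and 749 lower (3.39%). A correction for transcript length and GC content changed this split to 568 higher and 583 lower. The median log2 fold change was -0.07 over the list and 0.01 over all genes tested, with 28 genes of the list positive and 45 negative. Without the 6 broadly expressed Cfap genes the median was -0.08. These medians lie within the replicate spread of the list's median, which had a pooled SD of 0.19. With single libraries left out the median ran from -0.22 (without syringin library 3, beyond that spread) to 0.01 (without syringin library 2). At an unadjusted p under 0.05 stood 9 of the 73 genes, against 23.6% of all genes. The groups did not overlap for 7 genes that were higher and 9 that were lower in syringin libraries, where all genes gave 14.7% higher and 15.3% lower, 30.0% in either direction. In tissue RNA, a change in the number of ciliated cells and a change in RNA per ciliated cell cannot be told apart.

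**Figure D1:**
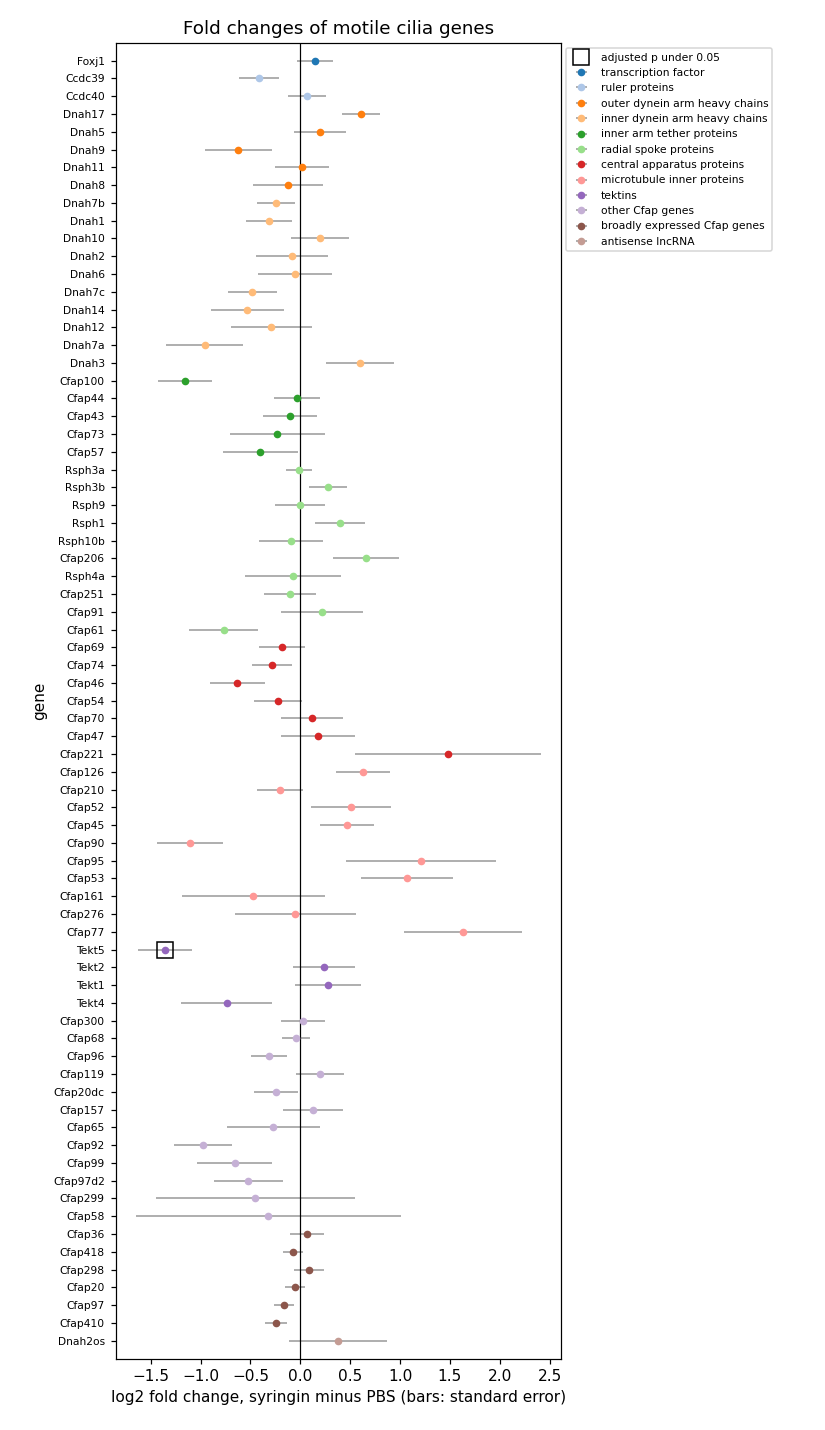
Log2 fold change of each of the 73 genes, syringin minus PBS, on the horizontal axis, with genes in rows grouped and coloured by role; points are edgeR estimates from 3 libraries a group and bars are standard errors. The estimates, 28 positive and 45 negative, run from -1.36 (Tekt5) to 1.63 (Cfap77), and the open square marks Tekt5, the gene with an adjusted p under 0.05.

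Foxj1, the transcription factor of the motile cilia programme, had 22.6, 29.3 and 36.4 CPM in the syringin libraries and 22.8, 27.6 and 29.4 CPM in the PBS libraries. The groups overlapped, and syringin library 3 was the highest of the 6. Its mean was 29.4 ± 6.91 CPM with syringin and 26.6 ± 3.37 CPM with PBS (SD, n = 3 each), a log2 fold change of 0.15 ± 0.18 (SE) with a 95% interval of -0.27 to 0.57 and an adjusted p of 0.687.

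CCDC39 and CCDC40 form the molecular ruler along which inner dynein arms and spokes are placed. Ccdc39 had 8.21, 7.28 and 10.5 CPM with syringin, against 10.3, 10.4 and 14 CPM with PBS. The groups met at the upper syringin library and the lower PBS ones. The log2 fold change was -0.41 ± 0.20 (adjusted p = 0.252), and Ccdc39 overlaps Ttc14 on the opposite strand, whose mean count was 7682 against 713.3 for Ccdc39. Ccdc40 had 4.09, 3.29 and 3.85 CPM with syringin and 3.51, 3.49 and 3.72 CPM with PBS, with overlapping groups and a log2 fold change of 0.07 ± 0.19 (adjusted p = 0.872).

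None of the 5 outer dynein arm heavy chains, the motors of the outer row, passed the test, and their median log2 fold change was 0.02. Dnah17, known best from sperm flagella, had the highest FPKM of them (0.238). It had 5.19, 4.48 and 5.57 CPM with syringin, against 3.72, 3.17 and 3.06 CPM with PBS. Every syringin library stood above every PBS library. The log2 fold change was 0.61 ± 0.19 with an adjusted p of 0.103. It passed the threshold in 2 of the other settings, at 0.86 (adjusted p = 0.0422) after the length and GC correction and at 0.61 (adjusted p = 0.042) with DESeq2. Dnah17 overlaps Pgs1 on the opposite strand, with a mean count of 6943 against 298.2 for Dnah17. The chains of airway and ependymal cilia, Dnah5, Dnah9 and Dnah11, had log2 fold changes of 0.20 ± 0.26, -0.62 ± 0.34 and 0.02 ± 0.27, with adjusted p-values from 0.318 to 0.977.

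The 10 inner dynein arm heavy chains, the motors that shape the bend, had a median log2 fold change of -0.26, with 8 negative and 2 positive, and none passed the test. Dnah7b, the highest of them per length at 0.53 FPKM, had 8.75, 9.46 and 13.5 CPM with syringin and 12.6, 11.5 and 13.4 CPM with PBS. Syringin library 3 stood level with the PBS libraries and the other syringin libraries stood below them. The log2 fold change was -0.24 ± 0.19 (adjusted p = 0.492). The related genes Dnah7a and Dnah7c had -0.96 ± 0.39 (adjusted p = 0.185) and -0.48 ± 0.25 (adjusted p = 0.285). These 3 genes are close copies, and the sources do not say how reads they share were divided.

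Among the 5 genes of the complexes that tether or modify inner arms (Cfap43, Cfap44, Cfap57, Cfap73 and Cfap100) every log2 fold change was negative, from -1.16 to -0.03, and none passed the test. Cfap100, known from the green alga Chlamydomonas as a modifier of inner arms, had 5.40, 6.08 and 6.29 CPM with syringin and 8.41, 18.5 and 12.8 CPM with PBS. The groups did not overlap, and the PBS libraries spread widely. The mean was 5.92 ± 0.464 CPM with syringin and 13.2 ± 5.04 CPM with PBS (SD, n = 3 each), a log2 fold change of -1.16 ± 0.27 with an adjusted p of 0.0514. Of the other settings, 8 that kept all libraries brought it under the threshold, with adjusted p-values from 0.000238 (DESeq2) to 0.0487. It also passed without PBS library 1 (-1.40, adjusted p = 0.0387), and without PBS library 2, its highest library, the log2 fold change was -0.84 (adjusted p = 0.133).

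**Figure D2:**
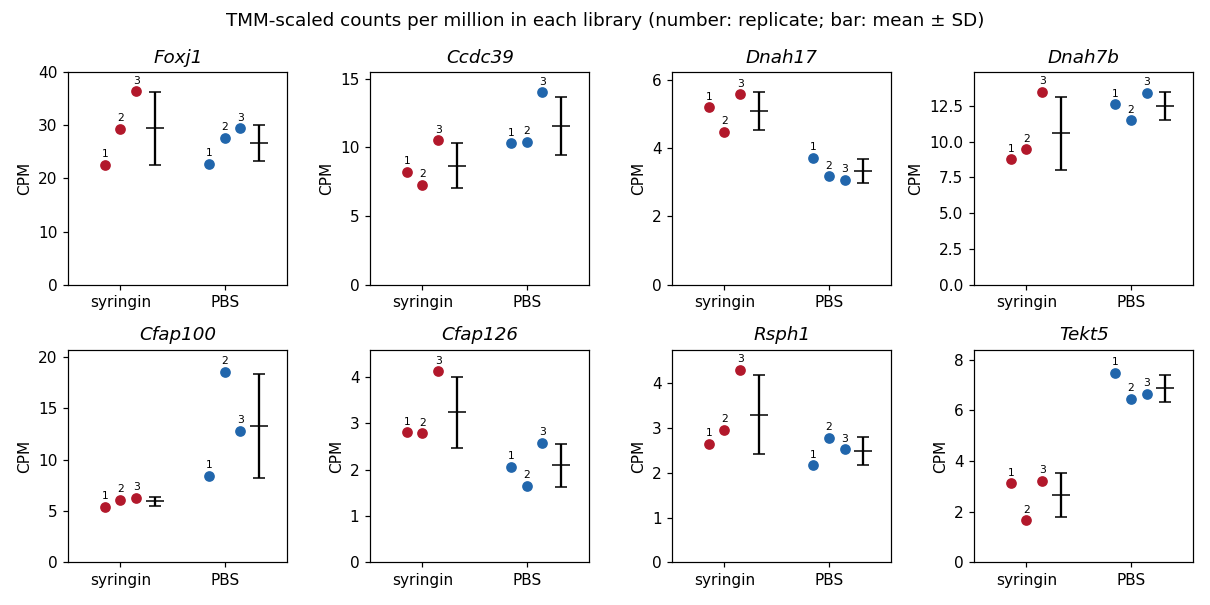
TMM-scaled CPM (vertical axes, from 0) of 8 of the genes in each library, with syringin left of PBS; coloured points are libraries numbered by replicate, and the black mark and bar beside them are the mean and SD of 3 libraries. The Tekt5, Cfap100, Dnah17 and Cfap126 points of the groups do not overlap, while those of Foxj1, Ccdc39, Dnah7b and Rsph1 do. Syringin library 3 is the highest of the syringin points in every panel.

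The 10 radial spoke genes, whose products carry signals from the central apparatus to the dyneins, had a median log2 fold change of -0.01, and none passed the test. Rsph3a, a spoke stalk protein gene with the highest FPKM of the group (6.43), had 21.9, 20.6 and 20.6 CPM with syringin and 17.8, 21.9 and 23.7 CPM with PBS. The syringin libraries lay within the PBS range, and the log2 fold change was -0.01 ± 0.13 with a 95% interval of -0.30 to 0.29 (adjusted p = 0.982). Its near copy Rsph3b had 0.28 ± 0.19 (adjusted p = 0.409), and shared reads may have been split between them. The spoke head genes Rsph1, Rsph4a and Rsph9 had adjusted p-values from 0.387 to 0.994. Rsph1 was the highest of these by fold, at 0.40 ± 0.25.

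The 7 central apparatus genes had a median log2 fold change of -0.18, and none passed the test. Cfap69, the highest of them per length at 1.77 FPKM, had 14.7, 10.4 and 17.9 CPM with syringin and 12.6, 17.9 and 18.1 CPM with PBS. The groups overlapped, with a log2 fold change of -0.18 ± 0.23 (adjusted p = 0.697). Cfap221, one of the least abundant genes of the list, had 0.308, 0.188 and 0.250 CPM with syringin and 0.146, 0 and 0.117 CPM with PBS. These are counts of 25, 12 and 17 against 11, 0 and 8, and the log2 fold change of 1.48 ± 0.93 (adjusted p = 0.387) has an interval from -0.67 to 3.62.

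The microtubule inner proteins, which brace the doublets from inside, gave the highest group median of the list, 0.49 over 10 genes, with 6 positive and 4 negative. The 4 tektins, which also line the inside of the doublets, were kept as a separate group, with a median of -0.25. The group median thus depends on how the inner proteins were divided. At an unadjusted p under 0.05 stood 4 of the 10, against 23.6% of all genes, and none passed the adjusted threshold. Both values were lower without syringin library 3, where the median was 0.16 and 1 of the 10 stood at that p. The mean deviation of the group from the average of the 6 libraries was -0.17, -0.08 and 0.59 (log2) in syringin libraries 1, 2 and 3 and -0.26, -0.06 and -0.01 in the PBS libraries. Without PBS library 1 the median was 0.39 and 1 of the 10 stood at that p, and without PBS library 2 or 3 it was 2 of the 10. Cfap126 (Flattop), the highest of them per length at 1.37 FPKM, had 2.81, 2.79 and 4.13 CPM with syringin, against 2.07, 1.65 and 2.58 CPM with PBS. Every syringin library stood above every PBS library, with a log2 fold change of 0.63 ± 0.27 and an adjusted p of 0.211. Cfap77 had 0.210, 0.298 and 0.558 CPM with syringin, against 0.132, 0.0892 and 0.117 CPM with PBS. The groups did not overlap, but the log2 fold change of 1.63 ± 0.59 did not pass the test (adjusted p = 0.149), and Cfap77 overlaps Gm13394 on the same strand, with a mean count of 10015 against 16.3. Cfap53, which had 0.715, 0.423 and 0.647 CPM with syringin against 0.185, 0.401 and 0.264 CPM with PBS, also did not overlap (1.07 ± 0.46, adjusted p = 0.21).

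Cfap90 went the other way within the inner proteins. It had 0.58, 0.36 and 0.558 CPM with syringin, against 1.11, 1.11 and 1.01 CPM with PBS. Each syringin library was below each PBS library, with a log2 fold change of -1.11 ± 0.33 with an adjusted p of 0.0943. It passed the threshold in 1 other setting, limma on log2(FPKM + 1), at -0.31 (adjusted p = 0.0488). Cfap95 had 0.0986, 0.298 and 0.676 CPM with syringin and 0.106, 0.208 and 0.147 CPM with PBS. Its groups overlapped and its log2 fold change of 1.21 ± 0.75 (adjusted p = 0.38) rested on syringin library 3.

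Tekt5 was the gene of the list that fell. Tektins are filament proteins inside the doublets, and tektin-5 is known mainly from the mouse sperm flagellum. In the deposited table the gene lies on the minus strand of chromosome 16, from 10175812 to 10213354. These coordinates do not match a GRCm38 annotation, in which 1 of the 73 genes and 717 of 34804 shared genes had the same start. The build they follow could not be settled. Tekt5 had 3.12, 1.66 and 3.22 CPM with syringin, from estimated counts of 253, 106 and 219. With PBS it had 7.49, 6.45 and 6.67 CPM, from estimated counts of 566, 434 and 455. Every syringin library was below every PBS library by a wide gap. The mean was 2.67 ± 0.873 CPM with syringin and 6.87 ± 0.551 CPM with PBS (SD, n = 3 each), and the log2 fold change was -1.36 ± 0.27, with a 95% interval of -1.99 to -0.74 and an adjusted p of 0.0358.

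The Tekt5 fold change kept its sign in every setting run, but its call did not survive the loss of 4 of the 6 libraries. The adjusted p was 0.0732 without syringin library 3, and 0.0984, 0.0995 and 0.158 without PBS libraries 1, 2 and 3, with log2 fold changes from -1.53 to -1.30. No other gene of the table overlapped it. The other tektins did not pass: Tekt1 had a log2 fold change of 0.28 ± 0.33, Tekt2 of 0.24 ± 0.31 and Tekt4 of -0.74 ± 0.46, with adjusted p-values from 0.386 to 0.699. Tekt5 was the most abundant of the 4 at 2.43 FPKM, against 1.47, 0.68 and 0.368 FPKM for Tekt2, Tekt1 and Tekt4. Its promoter window held none of the 3 motifs searched, while those of Tekt1, Tekt2 and Tekt4 each held GTTGCC on either strand.

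The 12 remaining Cfap genes, which had been placed in none of the role groups, had a median log2 fold change of -0.29, with 9 negative, and none passed the test. Cfap300, an assembly factor for dynein arms and the highest of them per length at 3.47 FPKM, had 5.51, 4.76 and 7.92 CPM with syringin and 5.85, 6.55 and 5.44 CPM with PBS. The PBS libraries lay inside the syringin range (0.03 ± 0.22, adjusted p = 0.96). Cfap92 had 0.949, 0.611 and 1.06 CPM with syringin, against 1.76, 1.68 and 1.74 CPM with PBS. Its groups did not overlap, and its log2 fold change of -0.98 ± 0.29 (adjusted p = 0.0974) passed with DESeq2 only. Cfap58 and Cfap299 had no count in 1 or more libraries, and their standard errors of 1.33 and 1.00 do not set their direction.

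The 6 broadly expressed Cfap genes had log2 fold changes from -0.24 to 0.09, and none passed. Cfap36, which binds the small GTPase ARL3 and was the most abundant gene of the list at 34.3 FPKM, had 129, 83.0 and 101 CPM with syringin and 113, 99.1 and 86.9 CPM with PBS. The PBS libraries lay within the syringin range, with a log2 fold change of 0.07 ± 0.17 (adjusted p = 0.853). The antisense transcript Dnah2os had 0.456, 0.470 and 0.309 CPM with syringin and 0.225, 0.490 and 0.234 CPM with PBS (0.38 ± 0.49, adjusted p = 0.702), and it overlaps Dnah2 on the opposite strand.

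At the edge of the mean count that chose the list, Cfap276, an inner protein gene, was just inside at 10.83. Its counts were 10, 6 and 16 with syringin and 12, 10 and 11 with PBS. Cfap141 was just outside at 9, with counts of 0, 0 and 9 with syringin and 11, 22 and 12 with PBS. The other genes below it were Rsph14 at 6.833, Cfap107 at 5.333, Rsph6a at 4.167, Cfap97d1 at 2.5 and Tekt3 at 0.667, so the tektin and spoke families were each measured only in part. Another gene overlapped 43 of the 73, on the opposite strand for 40, and for 19 the overlapping gene had the higher mean count. The sources do not say whether counting used the strand.

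Among the syringin libraries, most cilia genes were alike in standing higher in library 3 than in library 2. In 66 of the 73 genes (90.4%) syringin library 3 was higher than syringin library 2, against 51.2% of all genes tested and 56.0% of 3438 genes with a like level. The mean deviation from each gene's average over the 6 libraries, on the log2(CPM + 0.1) scale, was -0.14, -0.24 and 0.24 in syringin libraries 1, 2 and 3 and -0.05, 0.02 and 0.16 in PBS libraries 1, 2 and 3. Syringin library 3 held the highest value of the 6 for 31 genes (42.5%, against 17.7% of all genes) and syringin library 2 the lowest for 31 genes (42.5%, against 21.9%). This pair of libraries was picked after the values were seen. The median coefficient of variation was 24.2% with syringin and 19.5% with PBS, against 24.8% and 19.9% for genes of a like level, close to those of the list.

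**Figure D3:**
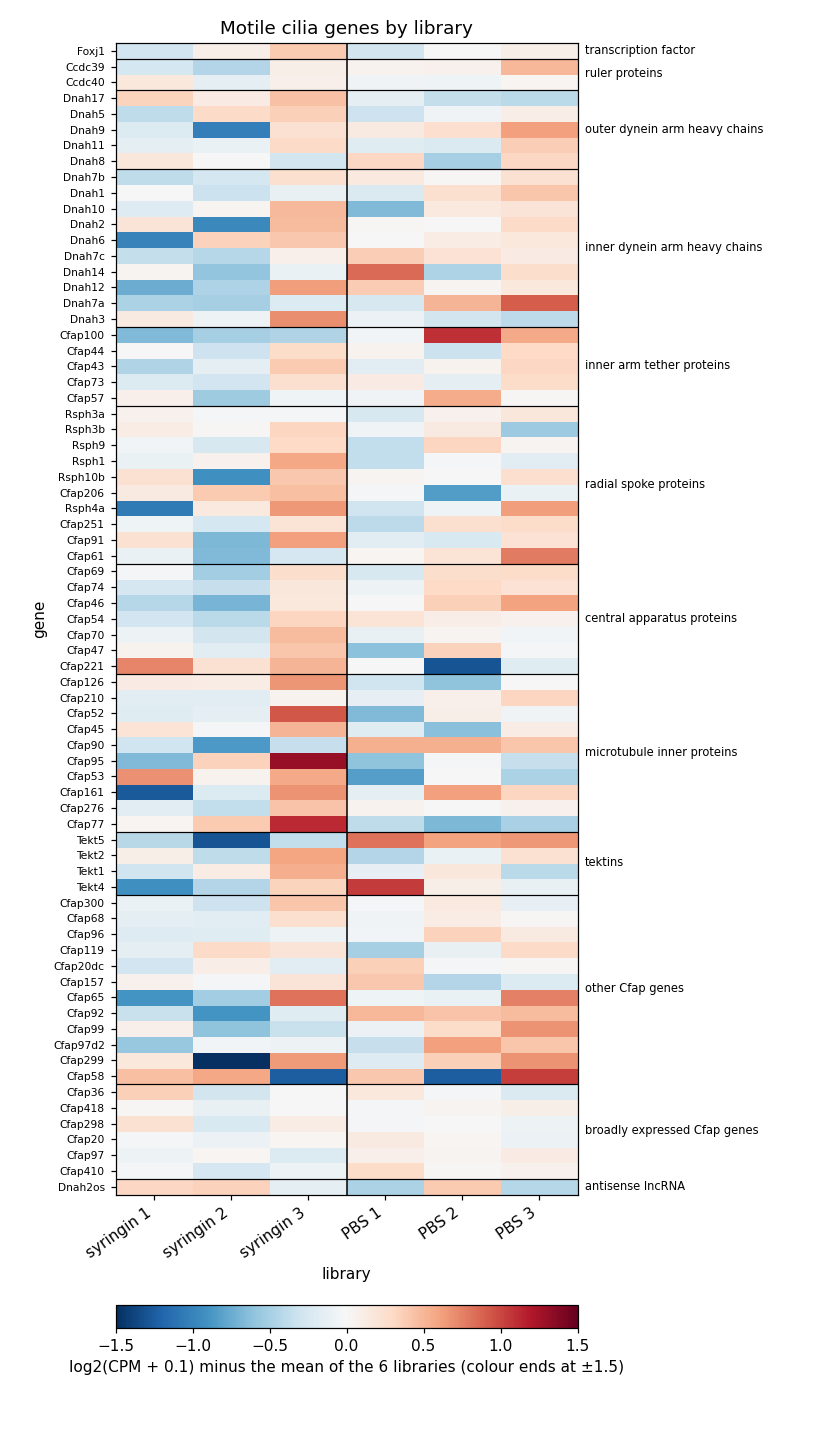
Deviation of each of the 73 genes from its mean over the 6 libraries, log2(CPM + 0.1), red above and blue below, with genes in rows by role and the syringin libraries left of the PBS libraries; the colour scale ends at 1.5 either way. Syringin library 3 is mostly red and syringin library 2 mostly blue (library 3 above library 2 in 66 of 73 genes), and the Tekt5 row is blue in all 3 syringin libraries and red in all 3 PBS libraries.

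The same pair of libraries differed in other transcripts. Syringin library 3 was above syringin library 2 for 16 of the 18 tested ependymal markers outside the axoneme and 10 of 14 tested regulators of multiciliation. The same held for 8 of 8 oligodendrocyte markers, 11 of 12 neuron markers and 10 of 10 sensory ganglion markers. It held for 1 of 10 markers of resting astrocytes and 1 of 20 cell cycle genes. The mitochondrial share of counts was 7% in syringin library 3 and 4.74% in syringin library 2, and 4.63% in syringin library 1. The part of these differences in the common deviation of the cilia genes was not tested.

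Few genes of the remaining ciliary machinery passed the test, where 3.39% of all genes passed as lower and 1.62% as higher. Of 44 tested genes for further axonemal parts and for dynein assembly, 1 was lower with syringin, none was higher and the median log2 fold change was -0.04. The lower gene was Dnal1, a dynein light chain gene, at 34.0, 29.5 and 30.7 CPM with syringin against 42.4, 44.9 and 46.4 CPM with PBS. The groups did not overlap, with a log2 fold change of -0.50 ± 0.09 (adjusted p = 0.0299). The call was lost without any 1 of the libraries other than syringin library 1 (adjusted p 0.071 to 0.169) and on log2(FPKM + 0.1) and log2(FPKM + 1) (adjusted p = 0.0521 and 0.0535), while the log2 fold change with a library left out stayed between -0.57 and -0.46. Gas8 and Dnaaf5, the genes of this set with the most FPKM, had 0.04 ± 0.15 and 0.32 ± 0.11 (adjusted p = 0.90 and 0.127). Syringin library 3 was above syringin library 2 in 34 of these 44 genes.

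Of 37 genes for intraflagellar transport and the BBSome, the carriers that build and supply cilia of all kinds, 1 was lower, none was higher and the median was -0.07. Without overlap of the groups, 2 of the 37 were higher and 10 lower, against 14.7% and 15.3% of all genes. Kifap3, which links the kinesin-2 motor to its cargo in cilia and also in axons, had 108, 96.9 and 94.9 CPM with syringin, against 141, 139 and 137 CPM with PBS. The groups did not overlap (-0.48 ± 0.08, adjusted p = 0.0242). This call too was lost without any 1 of the same 5 libraries (adjusted p 0.0644 to 0.138), at log2 fold changes of -0.49 to -0.45. Ift20 had 0.03 ± 0.12 (adjusted p = 0.902).

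None of 14 tested regulators of multiciliation passed, with a median of 0.21. Rfx2 and Rfx3, factors of the X-box, had 0.35 ± 0.21 (adjusted p = 0.358) and -0.10 ± 0.16 (adjusted p = 0.755). Mcidas, an early switch of the multiciliated fate, was too low to test, at up to 0.103 CPM with syringin and up to 0.212 CPM with PBS.

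Of the 18 ependymal markers outside the axoneme, Vim was higher with syringin and 17 did not pass, with a median of -0.02. Vim, an intermediate filament gene that reactive astrocytes, macrophages and fibroblasts also express, had 3080, 3320 and 3830 CPM with syringin, against 2160, 2420 and 1730 CPM with PBS. Every syringin library stood above every PBS library (0.70 ± 0.16, adjusted p = 0.047). The call was lost without any 1 of the libraries other than syringin library 1 (adjusted p 0.0925 to 0.2, log2 fold changes of 0.57 to 0.81) and in both tests on log2 FPKM (adjusted p = 0.0759 and 0.0763). Tm4sf1 had 0.70 ± 0.17 (adjusted p = 0.0585) and Rarres2 -0.53 ± 0.17 (adjusted p = 0.107), and Ccdc153, the narrowest marker of the list tested, had 0.222, 0.172 and 1.57 CPM with syringin and 0.675, 0.476 and 1.48 CPM with PBS. Neurons that contact the cerebrospinal fluid beside the ependyma, and the Reissner fibre within that fluid, were covered by 5 genes. None of the 5 passed, with Pkd2l1, the channel gene of these neurons, at 0.57 ± 0.20 (adjusted p = 0.144).

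Markers of several other cell types differed between the treatments. Of 12 neuron markers 6 were lower with syringin, with a median log2 fold change of -0.81 and summed levels of 2900, 1880 and 2550 CPM, against 4550, 3610 and 4210 CPM with PBS. Of 10 markers of resting astrocytes 6 were lower, with a median of -0.59 and sums of 1890, 2820 and 2410 CPM with syringin against 3400, 3790 and 4330 CPM with PBS. Of 12 markers of microglia and macrophages 3 were higher, with a median of 0.74 and sums of 2640, 6160 and 3980 CPM with syringin against 2040, 2320 and 2470 CPM with PBS. In this list 9 log2 fold changes were positive and 3 negative, from -0.74 to 1.29. Of 20 cell cycle genes 3 were higher (Pcna, Mcm2 and Mcm5, which act in DNA replication), with a median of 0.68, and of 7 endothelial markers Pecam1 was higher. No oligodendrocyte marker of 8 passed, nor any of the 8 meningeal and fibroblast or the 10 sensory ganglion markers, with medians of 0.07, -0.42 and 0.23. These counts depended on single libraries, while the medians of the neuron, astrocyte, microglia and cell cycle lists kept their sign with each library left out. The lower neuron markers ran from 0 (without PBS library 3) to 10 (without syringin library 1), and the lower astrocyte markers from 0 (without PBS library 3) to 5. The higher microglia markers ran from 0 (without PBS library 2 or 3) to 6 (without syringin library 1). The cell cycle count was 19 without syringin library 1 and 0 without any 1 of the other libraries, and Pecam1 did not pass without syringin library 2 or 3 or PBS library 2 or 3. The sensory ganglion median ran from -0.89 (without syringin library 1) to 3.21 (without PBS library 1). Without PBS library 1, 2 of the meningeal and fibroblast markers passed as lower. Many of these cells express single genes of the cilia lists, and the part of the lower neuron and astrocyte transcripts in the lower Tekt5, Dnal1 and Kifap3 was not tested.

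**Figure D4:**
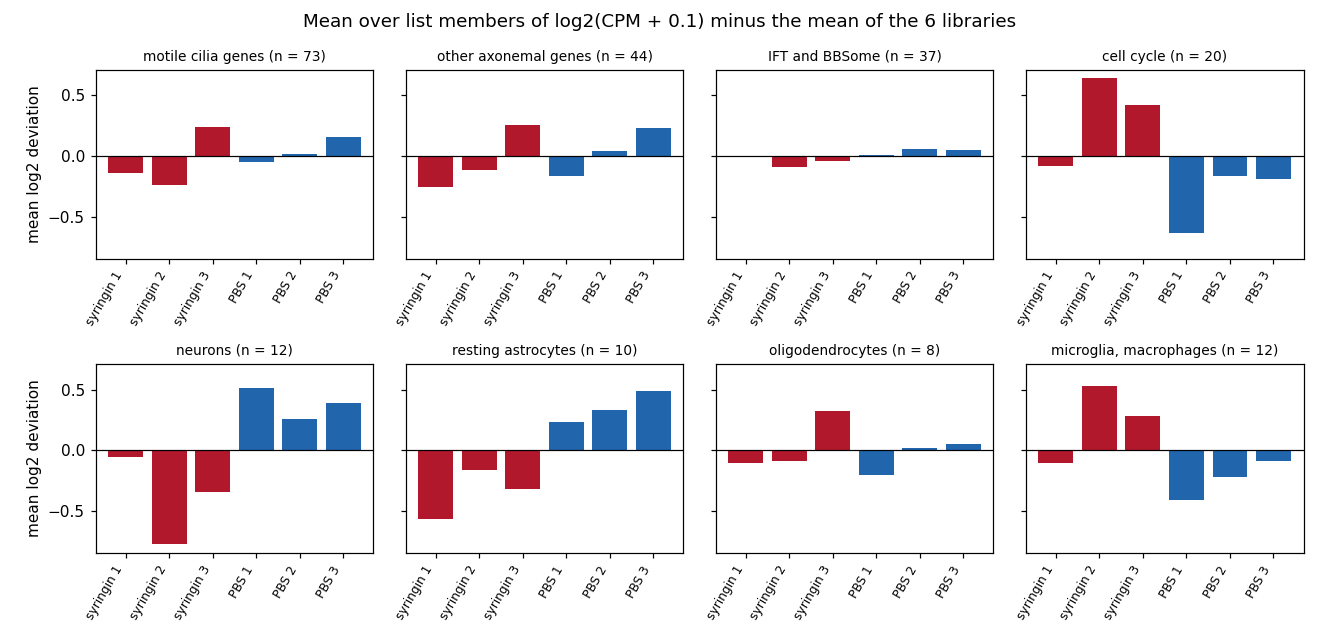
Mean deviation of each gene list in each library (vertical axes, mean over the tested genes of log2(CPM + 0.1) minus the mean of the 6 libraries), with the syringin libraries in red left of the PBS libraries in blue. The cilia genes and other axonemal genes are highest in syringin library 3, while neuron and astrocyte markers are negative in all 3 syringin libraries and positive in all 3 PBS libraries.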

How the data were processed

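Per the labels' protocols, RNA was extracted with TRIzol and stranded polyA libraries were made with a TruSeq kit. Per the submitters' processing notes, HISAT2 and StringTie were used (versions not given), and GRCm38 and mm10 are named as builds. The authors deposited 1 table that holds, for each gene and library, an estimated count and an FPKM. The estimated counts are whole numbers and were used as deposited. The FPKM values, scaled by the authors for length and depth, were used to rank genes by level and in an alternative test on the log2 scale.

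Low genes were removed with filterByExpr at a minimum count of 10 and a minimum total of 15, TMM factors ran between 0.9655 and 1.0292, and treatment was the single term of a robust quasi-likelihood model (edgeR 4.0.16, R 4.3.3). P-values are two-sided and adjusted by Benjamini-Hochberg over all 22114 genes, with a threshold of 0.05. The common biological coefficient of variation was 24.9%. CPM are counts per 1e+06 after scaling. Standard errors and 95% intervals come from this fit. No pair of libraries held identical counts. On simulated data for this comparison (21495 genes) the test recovered 6%, 43.8%, 63.8% and 78.7% of changes of log2 0.58, 1, 1.5 and 2. Most planted changes of log2 1 or less were missed there. Of its 108 calls 17 were false, a larger share than the threshold of 0.05. The simulation changed 50, 48, 47 and 47 genes at these sizes, while 1108 genes passed in the data. Its rates may therefore not carry over to the data.

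The members and gene lists were chosen with earlier results of these data known. Named in full were Foxj1, Ccdc39 and Ccdc40, genes past the threshold, the highest FPKM of each role, the 3 most positive and 3 most negative fold changes and the genes beside the mean count of 10. Of the other lists, the genes past the threshold (at most 4) and the 2 with the highest FPKM could be named, and clone names were left out. Further genes were named after their values were seen (Dnah5, Dnah7a, Cfap53, Cfap92, Tekt1, Rfx2, Ccdc153 and others). Alternatives were other size factors, filters and counts divided by 4, DESeq2 1.42.0, limma 3.58.1 (voom, and on log2 FPKM), length and GC correction, a sensory ganglion covariate, a replicate block and each library left out. Python 3.11.15, pandas 2.3.3 and matplotlib 3.10.9 made tables and figures.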

Additional observations from a re-analysis of the deposited data

How the results depend on the processing

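The median log2 fold change of the 73 genes moved by less than the replicate spread of 0.19 in every setting run. With each library left out it ran from -0.22, which itself lies beyond that spread from 0, to 0.01. The number of genes of the list that passed, 1 with all libraries, ran from 0 to 1 with each library left out. It was 2 with no composition factors, no filter on low counts, a minimum of 1 CPM, counts divided by 4, the sensory ganglion covariate and limma on log2(FPKM + 1), 3 with the length and GC correction and 4 with DESeq2. Tekt5 was among them in each of these. Fewer than the 73 genes were tested with a minimum of 1 CPM (58) and with counts divided by 4 (63), and 63 had an adjusted p with DESeq2. Over all genes the calls, 1108 with all libraries, were 2622 with the ganglion covariate and 2798 with DESeq2, and ran from 0 (without PBS library 3, where 3449 genes had an unadjusted p under 0.05) to 1944 (without syringin library 1) with each library left out; the cause was not tested.

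The labels do not say that replicate numbers pair animals. Libraries of the same number deviated together with correlations of 0.292, 0.123 and 0.052. With the replicate block, 2 genes of the list (Cfap100 and Tekt5) and 2557 of all genes passed.

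Fold changes near 0 changed sign. Cfap300 was -0.01 with no composition factors and with the ganglion covariate, -0.00087 with the replicate block, -0.00075 with limma-voom, and -0.03 and -0.02 on log2(FPKM + 0.1) and log2(FPKM + 1). Rsph3a was 0.0027 with the replicate block, 0.02 with the ganglion covariate and 0.01 with limma-voom, and Cfap36 was -0.0033 with the ganglion covariate. With each library left out, the ranges that crossed 0 were -0.12 to 0.21 for Cfap36, -0.52 to 0.19 for Cfap276, -0.01 to 0.15 for Ccdc40, -0.37 to 0.01 for Cfap69, -0.04 to 0.30 for Foxj1, -0.22 to 0.18 for Cfap300 and -0.11 to 0.08 for Rsph3a.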
